A study of Rattus norvegicus with 24 samples.

Results

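Microtubules are hollow polymers of paired alpha and beta tubulin, and each kind of tubulin comes from several genes whose products are called isotypes. The transcripts of 9 isotype genes were followed in single dorsal root ganglion (DRG) neurons of the rat: the beta tubulins Tubb3, Tubb2a, Tubb2b, Tubb6, Tubb4a and Tubb5, and the alpha tubulins Tuba1a, Tuba1b and Tuba4a. They were taken by gene symbol and are 9 of 25 tubulin genes among the 32881 genes that the count files share. All 9 passed the filter on low counts in every comparison. Counts of unique molecular identifiers (UMIs) were read in 1433 of 1464 cells. A cell was kept if it had 500 or more genes and 1000 or more UMIs and if mitochondrial genes gave less than 5% of them.

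The study asked how DRG neurons change after spared nerve crush (SNC), in which the tibial and common peroneal branches of the sciatic nerve of male Sprague-Dawley rats were crushed and the sural branch was left whole. The nerve branches of these rats had been injected with dyes, and dyed L4 and L5 neurons were picked by hand, from crushed (directly injured) and uncrushed (indirectly injured) branches. The labelled libraries came from 16 DRG samples: 4 sham (batches Xin, 4, 10 and 18), 4 at 1 d after SNC (13, 16, 17-1, 17-2), 3 at 3 d (14, 15, 17-3) and 5 at 7 d (8, 9, 19-1, 19-2 and S, the last read as 2 libraries). In sham surgery the nerve was laid open without a crush. A further 7 sham libraries (S1 to S7) were added to the series, labelled 0 d (S1, S2, S7), 1 d (S3, S6), 3 d (S4) and 7 d (S5), and their labels give no number of injured cells. The study's text sets its dyed neurons apart from further neurons used to annotate subtypes, and the labels of the added libraries name no dye. The rats' age is not given in the sources used here. Crushed and uncrushed neurons share a library and were not told apart by the labels of the cells. The labels tie no batch to a rat, so p-values measure the spread between these samples.

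DRG neurons carry a long axon rich in microtubules. Tubb3, or class III beta tubulin, is the common marker of neurons, and Tubb2a and Tubb2b are the class II beta tubulins that make much of the beta tubulin of nerve cells. Tubb5 is the widely expressed class I gene, Tubb4a is a class IV gene found mainly in the nervous system, and Tubb6 is the class V gene, which many tissues outside the nervous system use. Tuba1a is the main alpha tubulin of growing neurons, Tuba1b is widely expressed, and Tuba4a encodes an alpha tubulin that lacks the last tyrosine of the others. Sprr1a, a small proline-rich protein gene, is a known marker of injured and regrowing sensory neurons and is set beside the isotypes below.

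The promoters of 4 beta members are shown. Tubb3, Tubb2a and Tubb2b are examples of members called in both sets of differences below, lower in the added libraries and higher in Sprr1a-high cells, and Tubb4a was called in neither. Each run has 300 bases around the RefSeq start of the gene on GRCr8, printed 5′ to 3′ along the gene. None of the letter strings contains another. Capitals mark matches, on either strand, to the letters TGANTCA (the AP-1 site), TATAAA (the TATA box), GGGCGG (the SP1 site), CCAAT (the CCAAT box) and TGACGTCA (the core of the cAMP response element).
Tubb3 promoter (GRCr8 chr19:68365437-68365736, plus strand): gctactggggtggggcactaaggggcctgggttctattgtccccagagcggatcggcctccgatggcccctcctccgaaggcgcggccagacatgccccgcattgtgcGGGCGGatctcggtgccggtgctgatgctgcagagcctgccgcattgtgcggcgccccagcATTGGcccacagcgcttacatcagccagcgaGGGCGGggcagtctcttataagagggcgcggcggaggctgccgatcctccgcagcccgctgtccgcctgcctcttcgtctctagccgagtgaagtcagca
Tubb2a promoter (GRCr8 chr17:31001936-31002235, plus strand): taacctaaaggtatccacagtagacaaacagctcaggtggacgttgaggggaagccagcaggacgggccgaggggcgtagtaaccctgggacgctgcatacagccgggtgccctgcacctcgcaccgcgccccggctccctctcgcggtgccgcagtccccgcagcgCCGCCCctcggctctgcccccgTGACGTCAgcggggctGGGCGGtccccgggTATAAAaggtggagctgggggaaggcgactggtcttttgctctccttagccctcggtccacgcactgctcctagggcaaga
Tubb2b promoter (GRCr8 chr17:30952836-30953135, plus strand): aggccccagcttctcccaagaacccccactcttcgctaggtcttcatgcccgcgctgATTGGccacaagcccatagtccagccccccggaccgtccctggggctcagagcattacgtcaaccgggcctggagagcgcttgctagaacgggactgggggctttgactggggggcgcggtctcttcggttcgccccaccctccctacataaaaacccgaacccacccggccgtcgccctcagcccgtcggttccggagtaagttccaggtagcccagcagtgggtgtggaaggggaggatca
Tubb4a promoter (GRCr8 chr9:2012232-2012531, minus strand): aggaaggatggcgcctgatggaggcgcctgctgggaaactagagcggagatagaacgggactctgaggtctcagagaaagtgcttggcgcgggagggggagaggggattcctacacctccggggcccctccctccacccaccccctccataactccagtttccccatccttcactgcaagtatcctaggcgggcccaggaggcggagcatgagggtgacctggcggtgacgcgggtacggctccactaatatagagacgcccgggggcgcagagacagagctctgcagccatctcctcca
None of the 5 motifs was found in the window of Tubb4a. The AP-1 letters were in 0 of the 9 member promoters and in 7.34% of 33365 RefSeq promoters of that length. GGGCGG was in 7 of the 9, all but Tubb2b and Tubb4a, against 33.1% of all promoters, and CCAAT was in 6, against 37.5%. Tubb2a alone of the members held TATAAA, found in 14.2% of all promoters, and TGACGTCA, found in 1.83%. Tubb2a and Tubb2b lie on the same chromosome and their products are nearly the same. Their promoter windows shared the base at 81 of 300 positions without gaps, or 27%. No gapped alignment and no value for unrelated windows was made, so this does not measure how alike the promoters are. The letters are a description of these windows and not a count of sites in use.

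The 9 genes held 92.0% of all tubulin UMIs in labelled cells and 89.2% in added cells, and 1.06% and 0.678% of all UMIs. Sums per sample ran from 4002503 to 28975829 UMIs in labelled samples and from 14004136 to 40732975 in added libraries, and the least counted member, Tubb6, had 220 to 7342 UMIs per sample. Each UMI stands for 1 captured transcript end, so levels can be set side by side between genes as CPM, a gene's count scaled to the same total of UMIs in each sample. Over the 16 labelled samples Tuba1a stood at 2341 ± 377 CPM (SD) and Tubb3 at 2275 ± 361, followed by Tuba1b at 1604 ± 110, Tubb2a at 1303 ± 207, Tubb5 at 1298 ± 163 and Tubb2b at 986 ± 205. The lowest were Tuba4a at 482 ± 44.5, Tubb4a at 367 ± 44.8 and Tubb6 at 205 ± 43.0 CPM. Most steps of this order held in at least 15 of 16 samples. Tuba1a was above Tubb3 in only 11 of 16, and Tubb2a above Tubb5 in 8 of 16, so neither pair was ordered beyond the spread. In the added libraries Tuba1a again led, at 1409 ± 118 CPM (n = 7), and Tubb6 was last, at 22.3 ± 10.9. Tubb4a and Tuba4a were not ordered there, since Tubb4a was above in 4 of 7. Reads of near-identical genes, such as Tubb2a with Tubb2b and Tuba1a with Tuba1b or with copies elsewhere in the genome, may have been split in ways the counts do not show.

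Neuron types were described from clusters made without tubulin genes, and names ending in -like rest on marker genes. A cluster is no independent group for a test, so the mix by type is given as a description, over those DRG samples that held 3 or more cells of a cluster. Among labelled cells PEP-like cluster 1 (peptidergic nociceptors, n = 186 cells) was led by Cck and PEP-like cluster 2 (115) by Kcng1. The NF-like clusters (large neurofilament neurons) were led by Shox2 and Pvalb (cluster 3, 91 cells) and by Nppa (cluster 4, 85). The SST-like clusters (itch neurons) were led by Ifitm1, with Osmr and Il31ra (cluster 5, 72 cells), and by Sst (cluster 7, 57). The NP-like cluster 6 (nonpeptidergic nociceptors, 66 cells) was led by Chrna3 and Mrgprb4 and the TRPM8-like cluster 9 (cold-sensing neurons, 28) by Foxp2. Cluster 0 (188 cells) and cluster 8 (42), the latter led by Apoe, stayed unnamed, and cluster 8 held 7 of 10 glial markers at a high level. Cluster 8 also held 3 of 4 TRPM8-type markers (Trpm8, Foxp2 and Cdh8) at a high level.

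Tuba4a took its largest share in NF-like neurons. It made up 15.4 ± 1.36% (n = 12) and 13.6 ± 1.3% (n = 15) of the summed UMIs of the 3 alpha genes in the NF-like clusters, and means of 8.19 to 10.2% in the other 8 labelled clusters. In CPM, NF-like cells were above the other named types in 15 of 15 samples that held both, by a log2 ratio of 0.27 ± 0.12 (SD). The same direction was seen in 5 of 5 added libraries, at 0.63 ± 0.12, a value that ran from 0.55 to 1.45 under other ways of clustering or thinning, where Tuba4a took 17.9 ± 1.39% of alpha UMIs in NF-like cells and means of 6.17 to 14.4% in the other 7 clusters, lowest in an NP-like cluster and highest in the one rich in glial genes. By labelled cluster, the level of Tuba4a was 563 ± 58.2 and 534 ± 50.8 CPM in the NF-like clusters. It was close to these in the PEP-like Cck and TRPM8-like clusters, at 527 ± 58.5 and 530 ± 91.2 CPM. The other labelled clusters had means of 340 to 462 CPM. Tuba1a and Tuba1b were lower in labelled NF-like cells than in the other named types, at log2 ratios of -0.39 ± 0.21 and -0.25 ± 0.20. In the added libraries Tuba1a was at -0.40 ± 0.18, but Tuba1b was at 0.07 ± 0.08 and higher in NF-like cells in 4 of 5. In share these 2 alpha genes were more even. Tuba1b had mean shares of 34.5 to 39.9% over the labelled clusters, and Tuba1a of 47.2 to 55.8%, lowest in the NF-like cluster of Shox2.

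Tubb2b had the opposite order. It was lower in NF-like cells than in the other named types in 14 of 15 labelled samples, where 1 sample had it higher, with a log2 ratio of -0.59 ± 0.37, and in 5 of 5 added libraries, at -1.27 ± 0.42. Its share of beta UMIs was 12.4 ± 2.60% in the Shox2 cluster and 16.8 ± 0.871% in the unnamed cluster 0. In added NF-like cells it was 7.75 ± 1.05%. A lower level in NF-like cells was not particular to Tubb2b. Tubb5, Tubb3 and Tubb2a were at log2 ratios of -0.47 ± 0.19, -0.28 ± 0.22 and -0.27 ± 0.21 in labelled samples. In added libraries they were at -0.23 ± 0.19, -0.15 ± 0.11 and -0.22 ± 0.13. Tubb4a was at -0.10 ± 0.14 and Tubb6 at 0.03 ± 0.36 in labelled samples. NF-like cells also had the most UMIs, with medians of 526885 and 458048 per cell against 150283 to 311100 in the other labelled clusters. The sum over the 9 members was lowest of all labelled clusters in the Shox2 cluster, at 8610 ± 1181 CPM, and was 9619 ± 1142 in the Nppa cluster, where the other clusters had means of 9070 to 13454. The part of depth in these differences was not tested, but with each cell thinned to 20000 UMIs and clustered again Tuba4a was higher in NF-like cells in 14 of 15 labelled samples, at a log2 ratio of 0.47 ± 0.27.

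Tubb3 had mean shares of 34.2 to 36.4% of beta UMIs in 9 labelled clusters and 31.1 ± 0.998% (n = 8) in the NP-like one. Tubb6 ranged from 1.64 ± 0.848% (n = 8) in the Sst cluster to 4.13 ± 0.662% (n = 15) in the NF-like cluster of Nppa. In CPM it was 86.5 ± 45.6 in the Sst cluster and 271 ± 58.6 (n = 12) in the other SST-like cluster, with the other clusters between them. Tubb4a had mean shares of 4.77 to 7.10% in labelled clusters and of 7.11 to 11.1% in added ones.

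**Figure D1:**
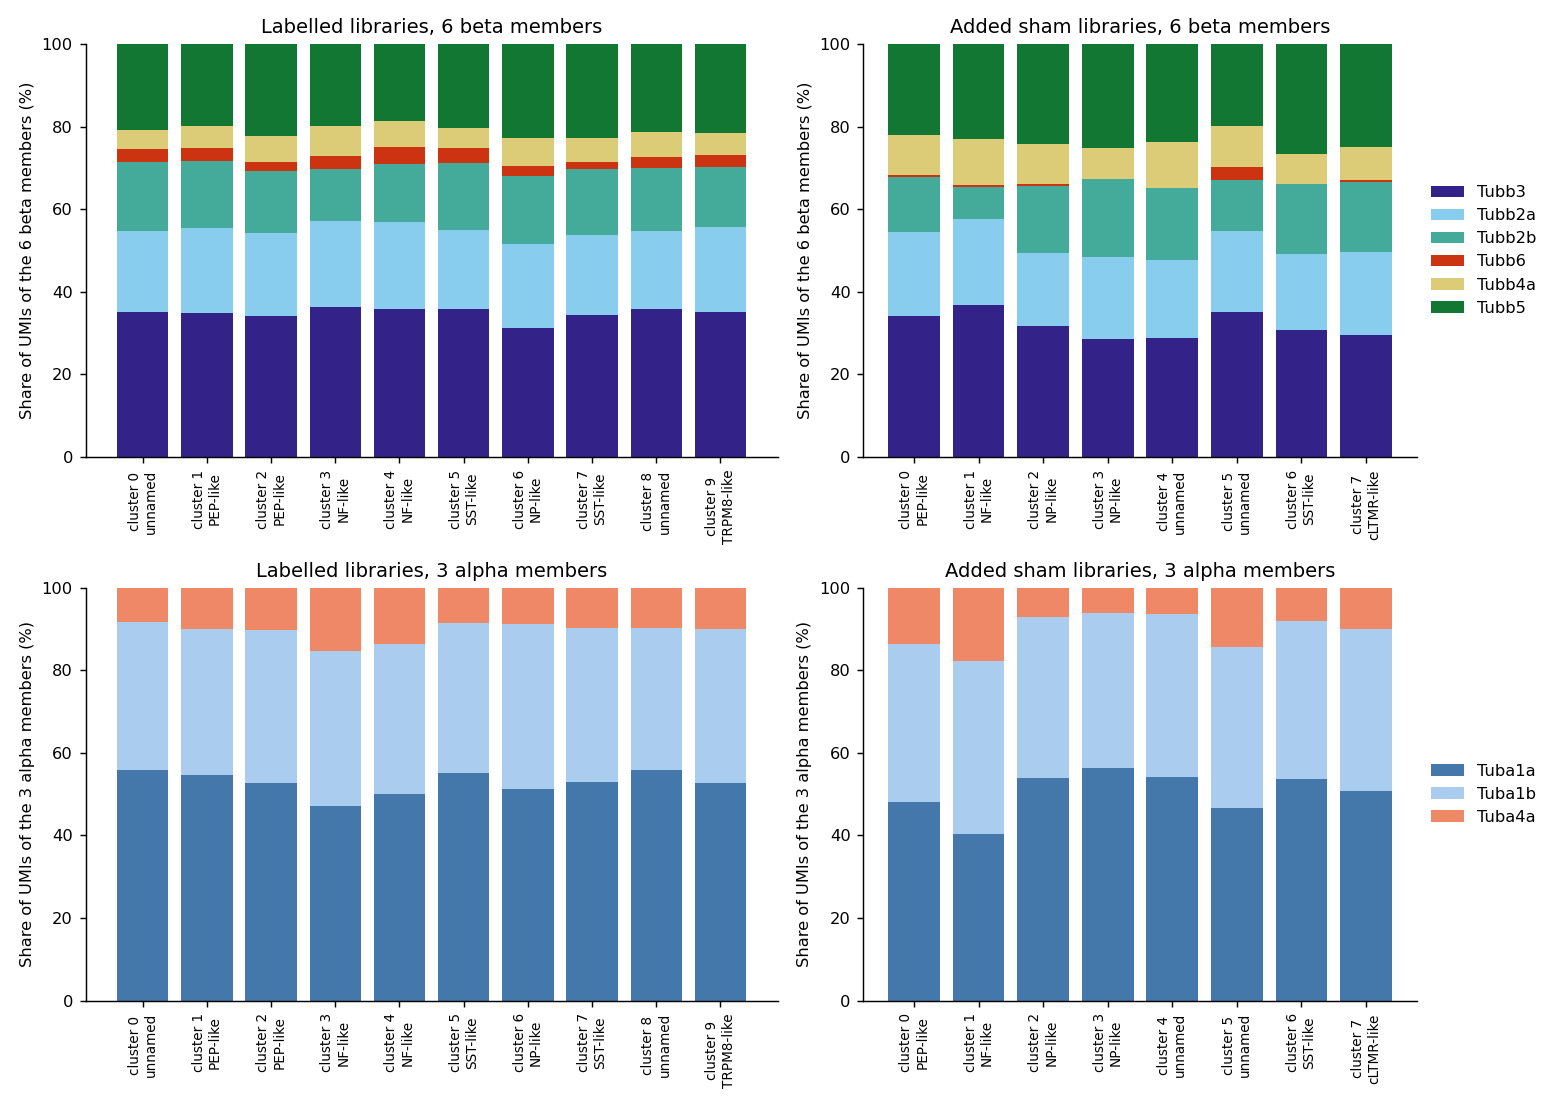
Share of the summed UMIs of the 6 beta members (top) and of the 3 alpha members (bottom) held by each gene, in percent, in each cluster of the labelled libraries (left) and of the added sham libraries (right). Each stacked bar is the mean over DRG samples or libraries with at least 3 cells. Clusters are numbered separately in the labelled and the added libraries. The Tuba4a segment is widest in the NF-like bars, at 15.4% and 13.6% in labelled and 17.9% in added cells, and the Tubb6 segment is thin in all added clusters but the one rich in glial genes.

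After SNC no isotype passed the test at any time. Most fitted values were below 0, and among the sham samples batch Xin stood far above the others. Tubb3 stood at 1956, 2269, 2354 and 3371 CPM in sham batches 18, 4, 10 and Xin. It stood at 2006, 2063, 2083 and 2169 CPM at 1 d, at 1923, 1963 and 2314 at 3 d, and at 2026, 2367, 2433, 2477 and 2624 at 7 d. The SNC values lay within the sham range except for 1 sample at 3 d, below it. The fitted log2 fold changes of Tubb3 were -0.34 (SE 0.16) at 1 d, -0.31 (SE 0.17) at 3 d and -0.14 (SE 0.15) at 7 d, with edgeR adjusted p of 0.57, 0.966 and 1.00.

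The test called 0.0% of 14239 genes at each time. At an unadjusted p under 0.05 edgeR gave 1243, 594 and 476 genes at 1, 3 and 7 d. Among them at 1 d were 3 members, Tubb2a (log2 fold change -0.38, SE 0.16), Tubb3 and Tubb5 (-0.31, SE 0.14), and at 3 and 7 d there was no member. DESeq2 called 9, 1 and 0 genes, and no member was among them. The median over the 9 members was -0.31, -0.22 and -0.16 on the log2 scale at 1, 3 and 7 d, against -0.0059, -0.0049 and -0.0061 over all genes tested.

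Tubb6, the lowest member, was followed in the same way. Sham batches 18, 4, 10 and Xin had 147, 149, 204 and 286 CPM of it, and samples at 1 d had 191, 200, 207 and 241. The 3 samples at 3 d had 168, 169 and 176 CPM, and those at 7 d had 158, 227, 250, 253 and 257. The groups overlapped at every time, and the fitted values were 0.01 (SE 0.21), -0.24 (SE 0.23) and 0.15 (SE 0.20) on the log2 scale. Tubb4a was at 328 to 420 CPM in sham, 345 to 441 at 1 d, 337 to 421 at 3 d and 270 to 368 at 7 d, with fitted values of 0.03, -0.04 and -0.20. The fitted values of Tuba4a were -0.17, -0.22 and -0.03, with SE of 0.10 to 0.12.

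Batch Xin, with 24 cells the smallest sham sample by UMIs, carried the highest level of all 9 members among sham samples. It had 29.2% of its cells in the cluster rich in glial genes, against 2.08 to 4.17% in the other sham samples, and a summed level of the 10 glial markers of 2455 CPM against 1427 to 1711. Its share of Sprr1a-high cells was also the highest of the sham samples, 79.2% against 22.9 to 55.3%. None of its cells lay in the NF-like Shox2 cluster, against 8.51 to 14.6%. Its Tubb3 was the highest of the sham samples in the PEP-like Cck cluster, at 4266 CPM (4 cells) against 2362 to 3264. In cluster 0 it was at 3340 CPM against 3030 to 3190. The part of glial RNA or of this makeup in its tubulin level was not tested. Without Xin, Tubb3 was at -0.10, -0.07 and 0.10 on the log2 scale at 1, 3 and 7 d and Tubb2b at -0.06, 0.11 and 0.06, so the signs of Tubb3 at 7 d and of Tubb2b at 3 and 7 d rested on this sample. Tubb6 was then at 0.30, 0.05 and 0.44. Sham batch 18 and all samples at 1 and 3 d were reverse transcribed in a later year than the other 3 sham samples, so time and year were partly confounded. With the year as a term Tubb3 was at -0.11, -0.08 and -0.08 and Tubb6 at 0.33, 0.07 and 0.22. With its date as a block Tubb3 was at -0.00, 0.25 and 0.12 and Tubb6 at 0.54, 0.28 and 0.48, so signs turned with this choice too. By the study's supplement no sham sample shared a date with a sample at 1 or 3 d. The values at 1 and 3 d in that fit were thus indirect, by way of samples at 7 d. Samples alone on their date, Xin and 18 among the sham, carried no weight in these contrasts. Within the earlier year, where only 7 d could be compared, they were at -0.19 and 0.11. No member was called in these fits. At 3 and 7 d the glial list had medians of -1.23 and -1.16 on the log2 scale, with none of its 10 genes called.

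Nor was a member called in the 6 clusters that could be fitted on their own. The value farthest from 0 was that of Tubb6 in the PEP-like Kcng1 cluster, at 1.21 (SE 0.25, edgeR adjusted p = 0.88) at 7 d and 0.83 (SE 0.25) at 1 d, over 3 sham samples and 3 at each of these times. In the PEP-like Cck cluster Tubb3 was at -0.50 (SE 0.17) at 1 d and -0.22 (SE 0.16) at 7 d, and in the NF-like Nppa cluster it was at -0.00 (SE 0.17) and 0.40 (SE 0.17). Whether the values were unlike between clusters was not tested.

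**Figure D2:**
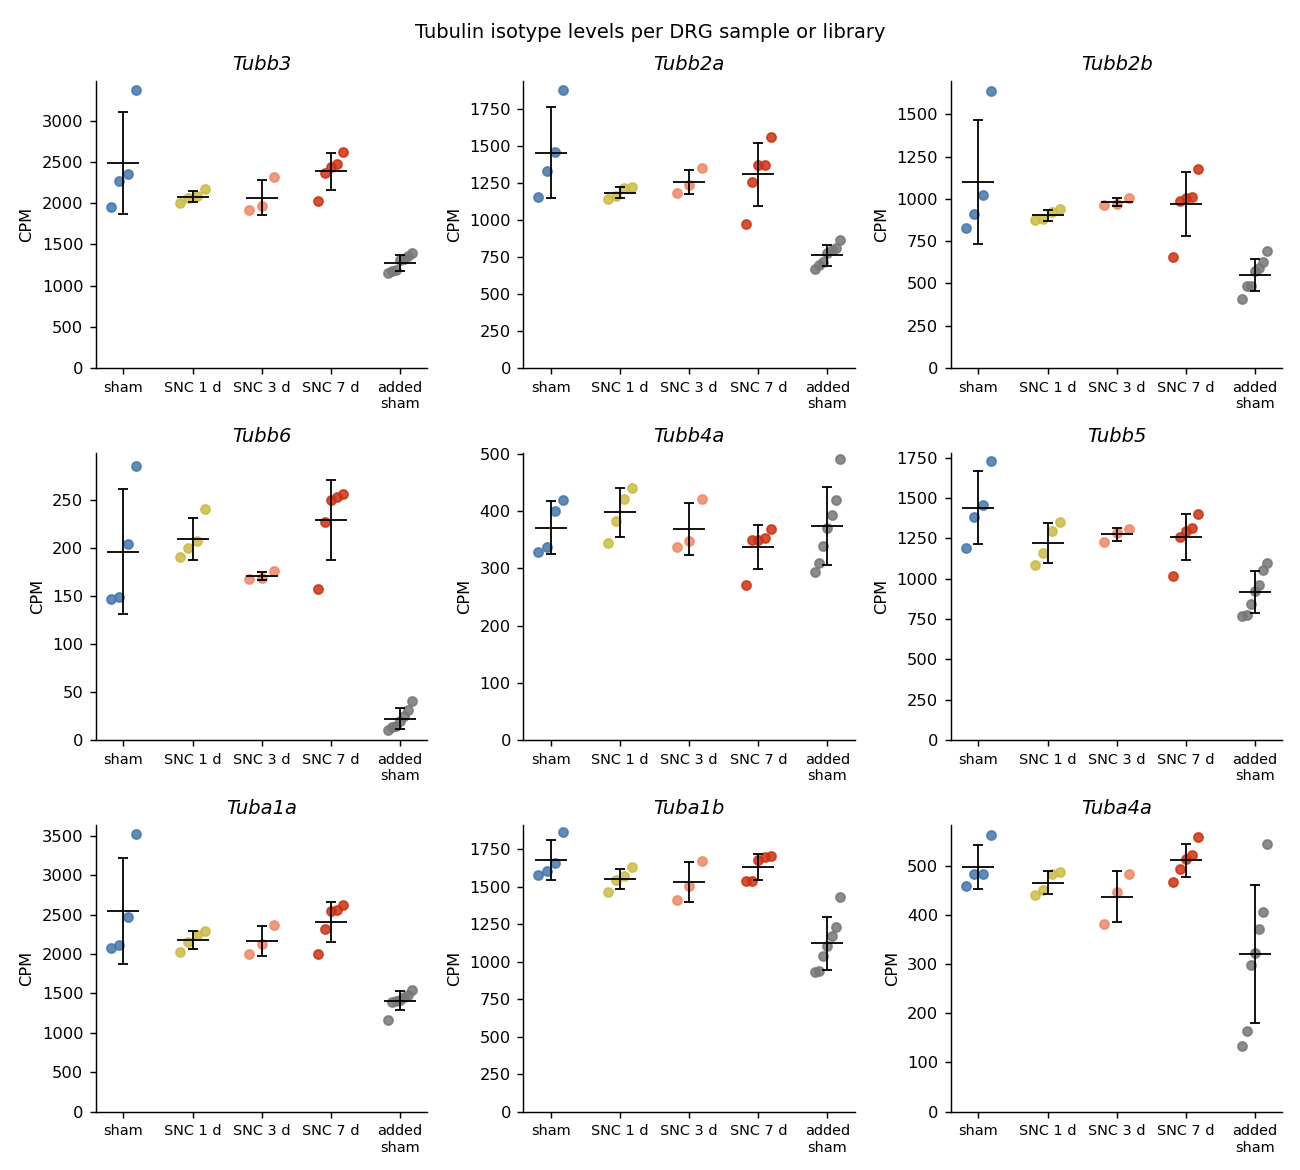
Level of each member, in CPM (linear axis from 0), in each DRG sample or library, with 1 point per sample, for labelled sham (n = 4), SNC 1 d (n = 4), 3 d (n = 3), 7 d (n = 5) and added sham (n = 7), with the mean and SD of each group. The SNC points overlap those of labelled sham for all 9 genes, while the added libraries lie between 10.7 and 40.8 CPM of Tubb6 and the labelled sham samples between 147 and 286.

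Shares within the beta or the alpha members do not depend on how libraries are scaled, and were compared by exact two-sided permutation tests, with Benjamini-Hochberg adjustment over 40 tests. No share passed after adjustment. At 1 d Tubb6 took 3.27, 3.32, 3.44 and 3.95% of the beta UMIs, all above the 2.31, 2.59, 3.03 and 3.06% of sham (exact permutation p = 0.0286, the smallest that 4 against 4 allows, adjusted p = 0.212). Tubb2a had the same p in the other direction, with 19.8 ± 0.270% (n = 4) against 20.7 ± 0.635% (n = 4). At 7 d Tubb6 was at 3.51 ± 0.306% (n = 5), with an exact permutation p of 0.0317 and an adjusted p of 0.212, and its values overlapped those of sham. Tubb3 then took 36.9 ± 1.34% against 35.2 ± 0.720% (exact permutation p = 0.0476, adjusted p = 0.272). At 3 d the smallest exact permutation p was 0.229, where 3 against 4 samples cannot go below 0.0571. Samples 17-1 and 17-2 at 1 d share a date of reverse transcription by the study's supplement, as do 19-1 and 19-2 at 7 d. The share tests counted each as a separate sample, so n may overstate the replicates there.

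The largest differences in isotype level lay between the labelled sham samples and the added sham libraries. Of the 9 members, 7 were lower in the added libraries and none was higher, where edgeR called 40.6% of all 15791 genes, 16.5% of them lower. The lower members were Tubb6, Tubb2b, Tubb3, Tubb2a, Tuba1a, Tubb5 and Tuba1b, while Tubb4a and Tuba4a did not pass. The median of all genes was 0.15 on the log2 scale and that of the members was -0.99. The groups differ in labels, in library and in the way cells are described, and dye, batch and surgery cannot be told apart as sources of the difference. Fewer cells of a type and less RNA of a gene per cell cannot be told apart in sums over all cells.

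Tubb6 showed the widest gap of the 9. The added libraries had 10.7, 13.9, 14.1, 19.8, 25.3, 31.7 and 40.8 CPM (S4, S2, S3, S1, S6, S5 and S7 in that order), and the lowest labelled sham sample had 147. No value overlapped, and the fitted log2 fold change was -3.29 (SE 0.33, edgeR adjusted p = 5.16e-05). At least 1 UMI of Tubb6 was found in 95.9% of 930 labelled cells, with a median of 37 UMIs, and in 62.6% of 503 added cells, with a median of 1. With each cell thinned to 20000 UMIs the shares were 88.6% of 886 and 20.1% of 493 cells. The median depth of the cells was 239286 UMIs in labelled and 340145 in added libraries. Its share of the beta UMIs was 0.579 ± 0.293% (n = 7) against 2.75 ± 0.362% (n = 4), with an exact permutation p of 0.00606, the smallest that 7 against 4 allows, and an adjusted p of 0.0808.

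In the added libraries Tubb6 was not even between clusters. It stood at 103 ± 43.8 CPM (n = 4 libraries) in the cluster rich in glial genes, which held 8 of 10 glial markers at a high level, and at means of 2.18 to 20.7 CPM in the other 7 clusters. The cluster rich in glial genes also held 3 of 4 TRPM8-type markers (Trpm8, Foxp2 and Rxfp1) at a high level. In labelled cells the cluster rich in glial genes, at 195 ± 80.3 CPM (n = 7), was within the range of the others, 86.5 to 271. Without the cells in the top 25% for glial genes the fold change was -3.86 (SE 0.37). The summed glial markers were at 1427 to 2455 CPM in labelled sham and 846 to 2058 in added libraries, where 1 of the 10, Pmp22, a myelin gene, was lower and 9 did not pass.

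Of the other beta genes 4 were lower and Tubb4a did not pass. Tubb3 was between 1150 and 1395 CPM in the 7 added libraries, with a median of 1317, and the lowest labelled sham sample had 1956. Its fold change was -1.10 (SE 0.14, edgeR adjusted p = 1.37e-04). Tubb2b was at 409 to 689 CPM and Tubb2a at 666 to 862, below the 828 and 1152 CPM of the lowest labelled sham sample, and their fold changes were -1.13 (SE 0.20) and -1.06 (SE 0.14). Tubb5, at -0.77 (SE 0.15), was also lower. Tubb4a had 294 to 491 CPM in added and 328 to 420 in labelled sham, with a fold change of -0.12 (SE 0.16, edgeR adjusted p = 0.574). Its share of beta UMIs was 9.58 ± 1.61% (n = 7) against 5.41 ± 1.14% (n = 4), without overlap (exact permutation p = 0.00606, adjusted p = 0.0808).

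Among the alpha genes Tuba1a (-0.99, SE 0.15) and Tuba1b (-0.71, SE 0.13) were lower. Tuba4a had 134, 165, 298, 323, 372, 405 and 543 CPM in S1, S2, S5, S6, S3, S7 and S4, and 458 to 562 in labelled sham. The added library S4, with 44 of its 86 cells in the NF-like cluster, thus lay within the sham range, and the fold change of -0.77 (SE 0.29) missed the threshold with an edgeR adjusted p of 0.0502. S1 and S2, both labelled 0 d, were the lowest, and each had under 3 NF-like cells, but S7, with the same label, was not. The part of neuron type in these levels was not tested. It was called by edgeR without S1, at -0.69 with an adjusted p of 0.0385, and without S4, at -0.96 with 0.0115, and over all samples left out in turn the edgeR adjusted p ran from 0.0115 to 0.102. Tuba1a shares of alpha UMIs ran from 37.2 to 56.1% over the 7 libraries. The sum of the 9 members was 6750 ± 387 CPM (n = 7) against 11770 ± 2410 (n = 4), without overlap (exact permutation p = 0.00606, adjusted p = 0.0808).

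The difference between the sham groups was also examined in Sprr1a-low cells and within classes of the same name. The classes come from separate clusterings of labelled and added cells and are not the same clusters: S100a16, Kcnv1 and Chp2 are among the 10 leading genes both of the labelled NF-like Nppa cluster and of the added PEP-like cluster, so the NF-like and PEP-like fits may set different kinds of neuron side by side. In the labelled sham samples 22.9, 22.9, 55.3 and 79.2% of the cells (batches 4, 18, 10 and Xin) had at least 100 CPM of Sprr1a, while 1 of 503 added cells had any UMI of it. With only the labelled sham cells under 20 CPM of Sprr1a (3 to 59 cells per sample), the same 7 members were called lower, where edgeR called 32.3% of 14550 genes. Tubb6 was then at -2.55 (SE 0.35) and Tubb3 at -0.89 (SE 0.15). In NF-like cells 6 members were lower (34.6% of genes called), with Tubb6 at -3.76 (SE 0.34) and Tubb2b at -1.35 (SE 0.22), and Tuba1b at -0.21 (SE 0.16), Tuba4a at -0.13 (SE 0.14) and Tubb4a did not pass. In PEP-like cells 8 were lower (32.7%), all but Tubb4a, and Tubb2b was at -1.70 (SE 0.27). In NP-like cells 8 were lower (39.3%), again all but Tubb4a, and Tuba4a was at -1.05 (SE 0.18). In SST-like cells 6 were lower (31.8%), with Tubb5, Tuba4a and Tubb4a the exceptions, and the 6 added libraries with such cells had 0 to 5 UMIs of Tubb6 each. Each class had 3 or 4 labelled sham samples and 5 to 7 added libraries. Whether the differences were unlike between classes was not tested.

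Sprr1a level was followed in the labelled cells, of which 44.4% had at least 100 CPM and are called Sprr1a-high here. The cut divides a range and not cell types, and 227 of the 930 cells lay between 50 and 200 CPM. Within DRG samples 8 of the 9 members were higher in Sprr1a-high cells, where edgeR, with the DRG sample as a block, called 28.2% of 14422 genes and 14.4% as higher. The median of the members was 0.29 on the log2 scale and that of all genes was -0.0027. Tubb6 differed most: over 16 samples its lowest, median and highest levels were 228, 258 and 341 CPM in Sprr1a-high cells and 115, 144 and 261 in the other cells. It was higher in 16 of 16 samples, at ratios of 1.12 to 2.34, and the fitted log2 fold change was 0.77 (SE 0.08, edgeR adjusted p = 2.39e-07). Across samples the classes overlapped.

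Tubb3, Tubb2a and Tubb2b were each higher in 15 of 16 samples, at fitted values of 0.31 (SE 0.06), 0.34 (SE 0.06) and 0.43 (SE 0.07). Tubb3 had 2132, 2320 and 3386 CPM as lowest, median and highest in Sprr1a-high cells and 1697, 2000 and 3314 in the others. Tuba1a (0.29, SE 0.06), Tubb5 (0.21, SE 0.06) and Tuba1b (0.17, SE 0.05) were higher in 14 of 16 samples. Tuba4a was higher in 11 of 16 at 0.13 (SE 0.05, edgeR adjusted p = 0.0482), a call that remained only without sample 8 (adjusted p = 0.0219) or Xin (adjusted p = 0.0236) when edgeR was run with each sample left out in turn. Tubb4a was higher in 8 of 16, at 0.06 (SE 0.04, edgeR adjusted p = 0.348). Over samples the median depth was 275644 and 275494 UMIs per cell in the 2 classes. Within samples depth differed in both directions. Sprr1a-high and other cells had 162148 and 249596 UMIs per cell in sample 4, and 348213 and 182242 in sample 8. The part of depth in these differences was not tested. The glial markers were at medians of 1557 and 1515 CPM, 2 of the 10 of them (Mbp and Pmp22) called higher.

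**Figure D3:**
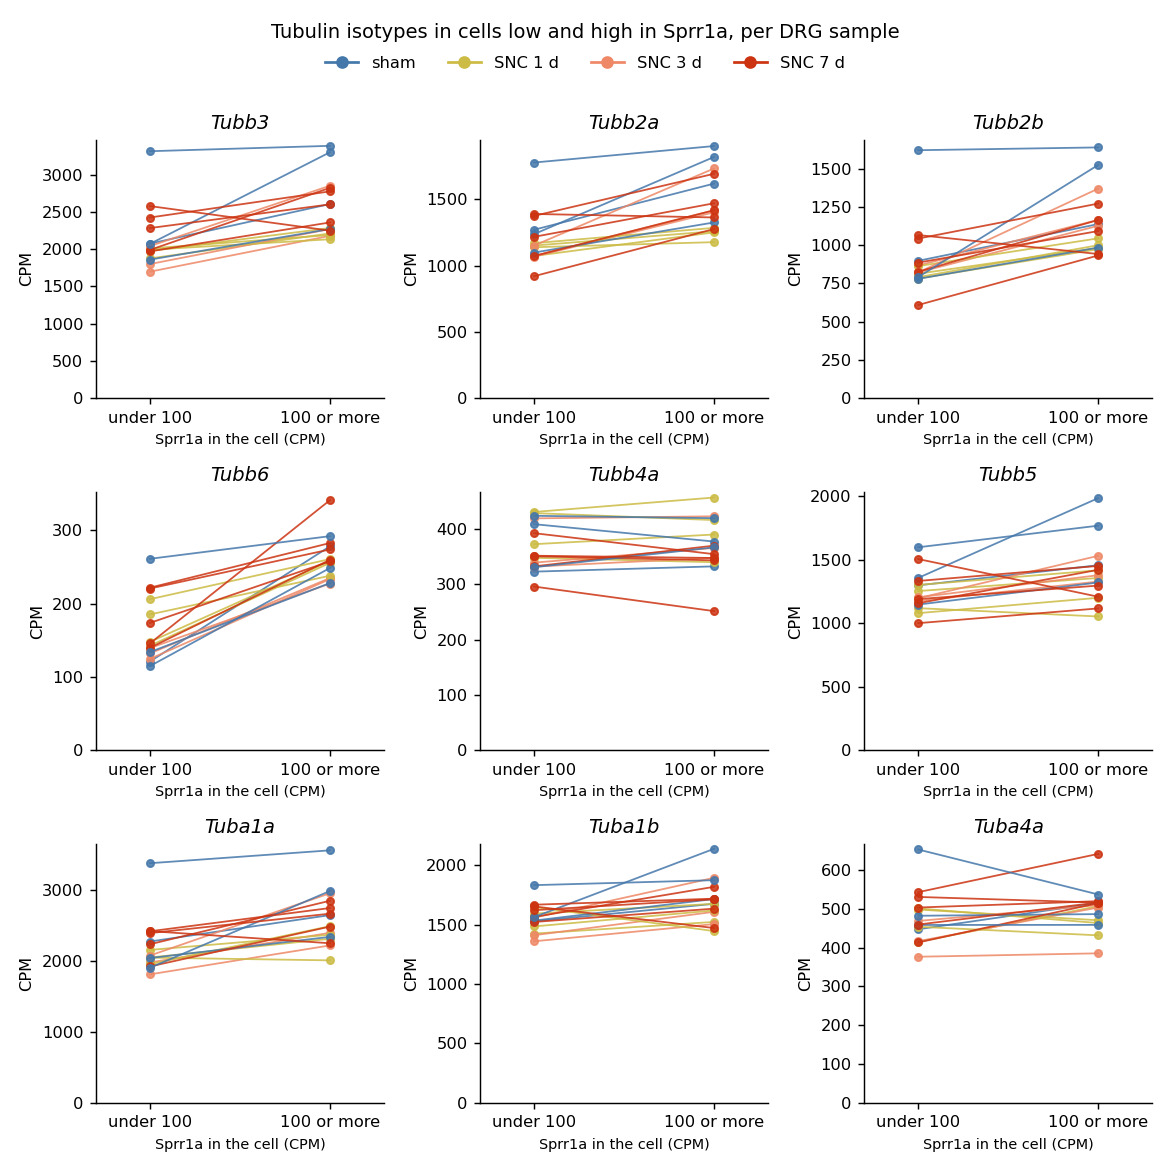
Level of each member, in CPM (linear axis from 0), in cells under 100 CPM and at or above 100 CPM of Sprr1a, with 1 line per DRG sample (n = 16) coloured by group. The lines of Tubb6 rise in all 16 samples, those of Tubb3, Tubb2a and Tubb2b in 15, and those of Tubb4a in 8.

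The classes differed in their makeup by cluster. Sprr1a-high cells made up 73.1% and 69.7% of the PEP-like Cck cluster and the unnamed cluster 0, 36.3% and 37.6% of the NF-like clusters, and 4.35, 4.55 and 1.75% of the PEP-like Kcng1, NP-like and SST-like Sst clusters. They made up 51.4% of the other SST-like cluster, 47.6% of cluster 8 and 53.6% of the TRPM8-like cluster. Clusters of the same type name thus differed in this share. Whether a block on cluster also removes part of the Sprr1a contrast was not tested. The PEP-like Cck cluster and cluster 0 had sums of the 9 members of 13364 ± 2216 and 13317 ± 1200 CPM. With the DRG sample and the cluster together as a block, in 30 blocks with at least 3 cells of each class, edgeR called 5.25% of 12462 genes. Tubb6 was then the only member called, at 0.37 (SE 0.07, edgeR adjusted p = 6.80e-04). Tubb3 (-0.04, SE 0.07), Tubb5 (-0.14, SE 0.08), Tuba1a (-0.02, SE 0.06) and Tuba1b (-0.07, SE 0.07) changed sign, and Tubb2b was at 0.10 (SE 0.08). Blocks from the same DRG sample counted as separate units in this fit, so its p-values may be too small. Samples 17-1, 17-2, 19-1 and 19-2 gave no block, nor did the NP-like and SST-like Sst clusters. Most blocks were of cluster 0 or the PEP-like Cck cluster. The 2 fits thus rest on different samples and cells.

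Across single cells within DRG samples Spearman's rho of Tubb6 with Sprr1a had a median of 0.557, from 0.119 to 0.793, and was above 0 in 16 of 16. With cells thinned to 20000 UMIs the median was 0.330, and within a DRG sample and cluster it was 0.294, above 0 in 27 of 30 blocks. The medians of the other members were 0.01 to 0.28 within samples and -0.19 to 0.07 within samples and clusters. Cells of a sample share its library and differ in depth, and these values are a description. By level of Sprr1a, Tubb6 was at 135 ± 38.7 CPM in cells under 20 CPM of Sprr1a, 219 ± 37.1 from 20 to 100, 259 ± 26.3 from 100 to 500 and 277 ± 57.9 at 500 or more (SD over 13 to 16 samples). The means of Tubb3 in the same bins were 1987 ± 396, 2399 ± 338, 2477 ± 405 and 2852 ± 618 CPM. The widest step between neighbouring bins lay at the low end for both genes. Tubb4a, at 356, 395, 369 and 372 CPM, showed no such order. The effect of the Sprr1a class was not shown to differ between sham and SNC samples for any member (exact permutation adjusted p of 0.801 or more over 9 tests with 4 and 12 samples), and Tubb6 was at 0.81 ± 0.47 in sham and 0.68 ± 0.29 in SNC samples on the log2 scale.

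**Figure D4:**
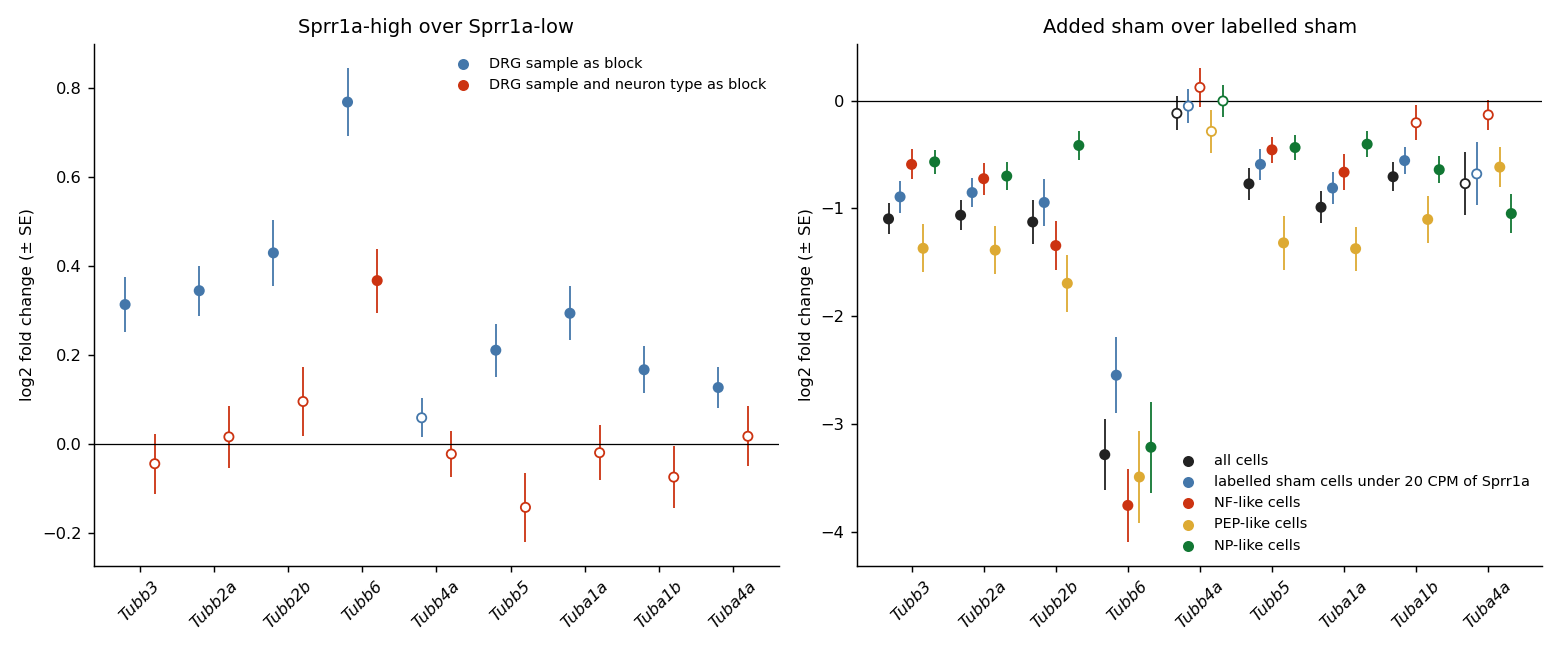
Log2 fold change with its SE of each member in the edgeR fits, for Sprr1a-high over Sprr1a-low cells (left) and added over labelled sham (right). Filled points passed an adjusted p of 0.05 and open points did not. The added sham points of Tubb6 lie between -2.55 and -3.76 in the fits shown, and on the left only Tubb6, at 0.37, stays filled once the cluster is part of the block.

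Genes that fold, modify or bind tubulin were read in the same fits. After SNC none of 7 other tubulins, 20 folding genes, 14 modifying enzymes, 23 microtubule-associated genes and 15 end-binding or severing genes that were tested was called by edgeR at any time. The lowest p among the other tubulins at 1 d was that of Tubb4b, a class IV beta tubulin, at -0.48 (SE 0.16, edgeR adjusted p = 0.534). Among the folding genes it was that of Vbp1, a prefoldin subunit, at -0.51 (SE 0.21, edgeR adjusted p = 0.534).

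Between the sham groups the folding genes were mostly lower in the added libraries. Of 20 tested, 14 were lower and 1 was higher, where 16.5% of all genes were lower. Vbp1 was at -2.24 (SE 0.37), Tcp1, a subunit of the chaperonin that folds tubulin and actin, at -1.02 (SE 0.30), and the cofactor Tbcc at -0.94 (SE 0.16), while the cofactor Tbcd was higher, at 0.60 (SE 0.14). The end-binding and severing genes went mostly the other way, with 9 of 15 higher and 3 lower, where 24.2% of all genes were higher. Camsap3, which binds the minus ends of microtubules, was at 2.03 (SE 0.37), Fign, a severing enzyme at means under 10 CPM, at 1.82 (SE 0.34) and Camsap1 at 1.07 (SE 0.13). Katna1, a katanin subunit, was at -0.62 (SE 0.22), Clasp1 at -0.59 (SE 0.19) and Mapre1, a plus-end binding gene, at -0.57 (SE 0.18).

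Of the 23 microtubule-associated genes, 7 were lower and 4 were higher in the added libraries, the latter a smaller share than the 24.2% of all genes. Stmn4 and Stmn1, stathmins that take up free tubulin, were lower at -3.42 (SE 0.32) and -1.23 (SE 0.25), as was Dpysl2 at -1.11 (SE 0.21). Dpysl4 (1.99, SE 0.32), the doublecortin-like kinase Dclk2 (1.56, SE 0.38) and Map1s (0.71, SE 0.17) were higher. Of 17 modifying enzymes 2 were lower, Svbp, the partner of the vasohibins that remove tyrosine from tubulin (-0.90, SE 0.17), and Ttl, the ligase that puts it back (-0.68, SE 0.19). Ttll5, a glutamylase, was higher at 1.11 (SE 0.28). Both counts of modifying enzymes were smaller shares than the 16.5% and 24.2% of all genes. Of 6 other tubulins Tubb4b (-0.72, SE 0.17) and Tuba1c (-2.25, SE 0.72) were lower and Tuba8 (2.47, SE 0.79) was higher, the last 2 at means under 5 CPM, and with 6 genes these counts are not read against the background.

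In Sprr1a-high cells 10 of the 23 microtubule-associated genes were higher and 2 were lower, where 14.4% of all genes were higher and 13.9% lower. Stmn4 (1.14, SE 0.10), the doublecortin gene Dcx (0.68, SE 0.17, a gene under 10 CPM in the mean) and Stmn1 (0.43, SE 0.09) were higher, and Dpysl4 (-0.99, SE 0.09) and Map7 (-0.91, SE 0.09) were lower. Of the 20 folding genes 6 were higher and none was lower, among them the chaperonin subunits Cct3 (0.17, SE 0.05), Cct6a (0.16, SE 0.05) and Cct8 (0.14, SE 0.04). Of 14 modifying enzymes, the vasohibin Vash2 (0.77, SE 0.17) and the deglutamylase Agtpbp1 (0.13, SE 0.04) were higher and Ttll7, a glutamylase, was lower (-0.61, SE 0.04), shares at or under those of all genes. Of 15 end-binding and severing genes Katna1, Clip2 and Mapre1 were higher, at 0.32, 0.19 and 0.16, and Ckap5 was lower, at -0.25, which is near the background for higher and under it for lower genes. With the cluster in the block, Stmn4 was still higher (0.50, SE 0.10), Ttll7 (-0.36, SE 0.07) and Map7 (-0.52, SE 0.11) were still lower, and no other gene of these lists was called. None of 6 other tubulins was called, where Tubg2, a gamma tubulin, had the lowest p (0.13, SE 0.07, edgeR adjusted p = 0.174).

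Likeness of pattern was measured as Pearson's r of log2(CPM + 1) over 110 sums per DRG sample and cluster, against 8446 genes with a mean of at least 10 CPM. The sums share samples and depth, so r is a description. Tubb3 and Tuba1a were each other's nearest gene, at r of 0.943, and Tubb2a was nearest to Tubb3, at 0.917. Tubb2b was nearest to Jpt1 (0.901) and Gap43, a growth cone gene (0.899), Tuba1b to Stmn3, a stathmin (0.895), and Tubb5 to Atp6v0c, a subunit of the vacuolar proton pump (0.941), followed by the ribosomal protein gene Rpl41 (0.934). Atp6v0c was among the 3 nearest genes of 5 members. The 3 remaining members stood apart: Tubb6 was nearest to Parp3 (0.823), Pcyt2 (0.798) and Pvr (0.790), Tuba4a to Nptn (0.723) and Slc41a3 (0.687), and Tubb4a to Nit1, at 0.492. Between members, Tuba4a had r of -0.15 to 0.34 with the other 8 and Tubb4a of 0.03 to 0.25.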

How the data were processed

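Single DRG neurons were sequenced from transcript ends with UMIs. The deposited values are raw UMI counts per gene and cell, made by the authors from reads aligned to Rnor_6.0 with STAR, featureCounts and UMI-tools, as their processing notes list. The members and gene lists were chosen with earlier results of these data known.

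Cells were kept by the limits given above and summed per DRG sample (the 2 libraries of S as 1). No cell's counts were identical to another's and all 1433 cell names were distinct. Doublets were not called, since cells were picked singly. Depth had medians of 239286 (labelled) and 340145 (added) UMIs per cell. The part of counting error in the spread between samples was not tested. Sums within a class or cluster could be small, such as 0 to 5 UMIs of Tubb6 in SST-like cells of the added libraries.

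Sums were fitted with the quasi-likelihood test of edgeR 4.0.16 (TMM, filterByExpr, Benjamini-Hochberg over all genes, adjusted p under 0.05; R 4.3.3). The 4 labelled groups shared 1 fit, and Sprr1a classes (at least 3 cells each) had the DRG sample as a block. DESeq2 1.42.0 was an alternative. Shares were compared by exact permutation tests (scipy 1.17.1). The fits were tested on simulated data. Cells were clustered with Seurat 5.3.0 (2000 variable genes less tubulins, 40 components, resolution 0.5), and a cluster was named if 3 or more markers of a type were at least 1.5 times their level in other cells and in at least 25% of its cells, unless its leading genes belonged elsewhere. From each gene list up to 3 called genes in each direction with the largest fold change were named, or the gene with the lowest p where none was called, and for each member the 3 genes of highest r. Promoters matched RefSeq by symbol. Alternatives were other normalizations, filters, depths, cuts, blocks and samples left out; those restricted to neuron classes or to Sprr1a-low sham cells were chosen after seeing the data. A few genes that these rules would name are not reported here.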

Additional observations from a re-analysis of the deposited data

Results flagged for a closer look

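Among 76 groups of 4 to 10 samples, 4 had a lowest sample far from the rest by Dixon's test at the 95% level, which chance gives in about 1 group in 20. Tubb4a was at 270 CPM in sample 9 of SNC 7 d, while the other 4 samples had 349 to 368 CPM. Tuba1a was at 1168 CPM in the added library S4, the only one labelled 3 d, and at 1394 to 1546 CPM in the other 6. Its share of alpha UMIs was also low there, at 37.2% against 47.9 to 56.1%. In S4, 44 of 86 cells lay in the NF-like cluster, in which Tuba1a had a mean share of 40.3% of alpha UMIs over the added libraries, and the part of this makeup was not tested. In sample 19-1 of SNC 7 d Tuba1a took 48.9% of alpha UMIs, and 52.9 to 54.4% in the other 4 samples. In 19-1, 25.0% of the cells lay in the NF-like Shox2 cluster and 20.8% were Sprr1a-high, against 0 and 58.3% in 19-2. The labels give 19-1 4 indirectly and 20 directly injured cells and 19-2 20 and 4. The part of these differences in the share was not tested.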

How the results depend on the processing

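After SNC the count of members called by edgeR was 0 in the main fits and in the alternatives run, with each sample left out (0 to 0). No share passed with any sample left out (0 to 0), but that count says little about robustness. With all samples the exact permutation p could not go below 0.0286, 0.0571 and 0.0159 at 1, 3 and 7 d before adjustment. Between the sham groups the limit was 0.00606, and shares at that limit had an adjusted p of 0.0808. Fewer samples can only raise these limits. Against labelled sham, 7 members were lower in the added libraries, 7 to 8 with each sample left out and 6 to 8 in the other fits, where Tuba4a was the eighth. Of the 8 members higher in Sprr1a-high cells, 6 to 8 were called with each sample left out and 7 to 9 under other tools, filters and cuts. The count was 5 in cells thinned to 20000 UMIs, 5 in SNC samples only, 1 in labelled sham samples only (4 samples) and 1 with DRG sample and neuron type together as the block. In that last fit the values of Tubb3 (-0.044), Tubb5 (-0.14), Tuba1a (-0.020) and Tuba1b (-0.075) turned negative, and the cause was not tested. The median rho of Tubb6 with Sprr1a, 0.557, was 0.330 in thinned cells and 0.294 within sample and neuron type. Without a filter on low counts the median over all genes between the sham groups was 0.46 instead of 0.15 on the log2 scale. No paired analysis was possible because the labels number no replicates shared between groups, while the date of reverse transcription, known from the study's supplement, could be used as a block, and 0 members were then called at each time. Clusters 6 to 9 had too few samples to be fitted alone. The SE of the fitted values after SNC ran from 0.10 for Tuba1b to 0.23 for Tubb6 on the log2 scale.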

Other observations

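Among the added libraries, which carry 4 day labels but were compared as 1 group, the levels of Tubb6 in CPM did not follow the day: the 0 d libraries had 13.9, 19.8 and 40.8, the 1 d libraries 14.1 and 25.3, the 3 d library 10.7 and the 7 d library 31.7. Tuba4a ranged more widely among them than any other member but Tubb6, relative to its mean, from 134 to 543 CPM. S1 and S2, with the lowest values, were also the libraries with the lowest glial markers, at 846 and 876 CPM. Both had under 3 NF-like cells, the type in which Tuba4a took its largest share, while S4, with the highest value, had 44 of its 86 cells in the NF-like cluster. The part of either in these levels was not tested.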
